A study of Mus musculus with 12 samples.

Results

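A set of 10 genes that encode precursors of neuropeptides known to modulate seizures was followed in the epileptic mouse hippocampus: Npy, Sst, Cck, Vip, Tac1, Penk, Pdyn, Crh, Gal and Cort. They were chosen by name, and a probe was kept when the scanner software called it well above background throughout at least 1 group, that is on all 3 of its arrays. By name 9 of the 10 genes had 13 probes among the 41174 transcript probes of the array, and 11 of these probes, from 9 genes, passed, against 27671 probes that passed in all. No probe carried the name Crh, so Crh mRNA was not analysed here, and the 2 Tac1 probes that failed are described with Tac1. Male C57BL/6N mice of 12 weeks had received 50 nl of 20 mM kainate into the left dorsal hippocampus, and 3 weeks later, with recurrent seizures established, a single intraperitoneal injection of lipopolysaccharide (LPS, a bacterial cell wall product that provokes systemic inflammation, here 100 µg/kg) or of saline. Hippocampi were taken 4 h or 24 h later, which gave 4 groups of 3 arrays, each array from 1 animal: either treatment at either time. All 4 groups, the saline controls included, carried the kainate injury, and no group without kainate was analysed here. The labels call the tissue whole hippocampus without saying which side it came from. The question was whether LPS moved each precursor mRNA at each time.

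Neuropeptides are cut from larger precursors inside dense-core granules and are released when neurons fire in fast trains, as they do in seizures. In the hippocampus somatostatin (Sst), cortistatin (Cort), neuropeptide Y (Npy), cholecystokinin (Cck) and vasoactive intestinal peptide (Vip) are made by GABA interneurons, and Cck also by some pyramidal cells. Dynorphin (Pdyn) and enkephalin (Penk) are found in granule cells and their mossy fibres, where seizures can also induce Npy. Galanin (Gal) reaches the hippocampus largely in incoming fibres, and Tac1, which encodes substance P and neurokinin A, is abundant in striatal projection neurons. Npy, somatostatin, galanin and dynorphin are known to dampen seizures, whereas substance P and corticotropin-releasing hormone (Crh) promote them.

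The array measured each mRNA through 60-base probes, and the probes of Npy and Tac1 are shown because they read the peptide-coding part of the message. Both span an intron in mm9 coordinates: the Npy probe lies at chr6:49773743-49777505 and the Tac1 probe at chr6:7507722-7509136. Capitals mark the codons for glycine followed by lysine or arginine, the signal at which a precursor is cut and its peptide amidated, at bases 47 to 55 of the Npy probe and 55 to 60 of the Tac1 probe. The Tac1 probe holds the neurokinin A part of the precursor.
Npy probe: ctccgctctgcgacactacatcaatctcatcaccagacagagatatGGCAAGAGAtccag
Tac1 probe: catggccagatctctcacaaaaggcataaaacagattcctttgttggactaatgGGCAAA

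Several of these genes are textbook targets of the cAMP response element, TGACGTCA, through which firing and hormones switch on transcription. The 250 bases before the start of transcription were searched on both strands for this element and for its core, TGACG or CGTCA, which the full element contains on each strand. Promoters came from RefSeq (GRCm38.p6), which matched 8 of the 10 members with 9 start sites. The full element stood in 1 of these windows, that of Sst, 48 bases before the start, against 1.55% of all 32851 promoter windows. The core stood in 5 of the 9 windows, those of Sst, Cck, Vip, Tac1 and Cort, against 17.8% of all windows. The windows of Sst and Tac1, the members with the largest response at 4 h and at 24 h, and of Cck and Vip are shown with the core in capitals. They lie at chr16:23890845-23891094 on the minus strand (Sst), chr6:7554811-7555060 on the plus strand (Tac1), chr9:121495695-121495944 on the minus strand (Cck) and chr10:5638968-5639217 on the plus strand (Vip). A match describes the letters and does not show that a factor binds there.
Sst promoter: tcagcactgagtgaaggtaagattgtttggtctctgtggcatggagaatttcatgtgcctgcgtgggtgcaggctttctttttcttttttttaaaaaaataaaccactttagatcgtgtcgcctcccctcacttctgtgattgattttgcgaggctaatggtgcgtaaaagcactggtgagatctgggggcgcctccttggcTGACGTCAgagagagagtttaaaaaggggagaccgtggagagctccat
Tac1 promoter: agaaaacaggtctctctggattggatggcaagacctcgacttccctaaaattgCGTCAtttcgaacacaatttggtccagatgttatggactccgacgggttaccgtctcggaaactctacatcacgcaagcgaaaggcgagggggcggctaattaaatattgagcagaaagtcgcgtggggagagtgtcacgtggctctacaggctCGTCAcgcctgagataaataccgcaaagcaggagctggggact
Cck promoter: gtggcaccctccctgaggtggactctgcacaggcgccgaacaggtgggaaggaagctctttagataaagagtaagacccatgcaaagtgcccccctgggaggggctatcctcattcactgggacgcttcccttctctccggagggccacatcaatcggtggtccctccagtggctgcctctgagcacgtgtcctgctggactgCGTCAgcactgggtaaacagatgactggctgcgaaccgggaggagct
Vip promoter: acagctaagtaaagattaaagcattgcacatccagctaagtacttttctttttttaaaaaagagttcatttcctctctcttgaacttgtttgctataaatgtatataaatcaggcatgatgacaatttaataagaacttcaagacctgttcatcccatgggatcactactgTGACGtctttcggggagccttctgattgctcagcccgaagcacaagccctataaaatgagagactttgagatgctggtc

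Levels are given as log2 of the Cy3 intensity relative to the 75th percentile of all transcript probes on the same array, so that 0 is a probe at that percentile and each unit is a factor of 2. Differences were tested probe by probe with limma across the 12 arrays, and called where p, adjusted by Benjamini and Hochberg over all 27671 probes, was under 0.05. The saline arrays of 4 h stood apart from the other 9. Their 75th percentile was 385 ± 12.6 intensity units (SD, n = 3), against 702 ± 35.3 with LPS at 4 h, and 798 ± 61.4 with saline and 863 ± 124 with LPS at 24 h. On these arrays 54.6% of transcript probes exceeded the background threshold, against 59.6% to 69.7% in the other groups. Arrays of 1 group were close to each other, with a median SD per probe of 0.055 to 0.074 log2 units, and the 10 spots of the Sst probe on 1 array had an SD of 0.02 to 0.055. Many probes were called: 71.2% of all probes between LPS and saline at 4 h and 42.7% between them at 24 h, and 79.4% between the saline groups of the 2 times. The calls on the neuropeptides are read against these shares. Of the probes called, 44.1% were higher at 4 h and 45.1% at 24 h, and 32.6% and 30.9% when arrays were scaled by their median, which moved the median of all probes at 4 h from -0.09 to -0.25. The arrays of 4 h and of 24 h were scanned in separate runs, so time and run cannot be told apart in any comparison across times. In pieces of whole tissue, fewer cells of a type and less mRNA per cell cannot be told apart either.

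At 4 h after LPS, 3 member probes were higher than in saline at 4 h (Sst, Vip and Cort) and 8 were lower (Npy, both Cck probes, Tac1, both Penk probes, Pdyn and Gal), beside 31.4% of all probes called higher and 39.8% called lower. None of the 11 had overlapping groups, as held for 74.7% of all probes. The median difference of the 11 probes was -0.62, beside -0.09 over all probes. At 24 h, 3 probes were higher (Npy, Pdyn and Gal), 3 lower (Sst, Tac1 and the brighter Penk probe) and 5 were not called, beside 19.3% and 23.5% of all probes. At 24 h the groups overlapped for Vip and for the dimmer Penk probe, and 54.3% of all probes had groups that did not. The largest differences of the members at 24 h were the fall of Tac1 by 1.40 and the rise of Gal by 1.03 log2 units.

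**Figure D1:**
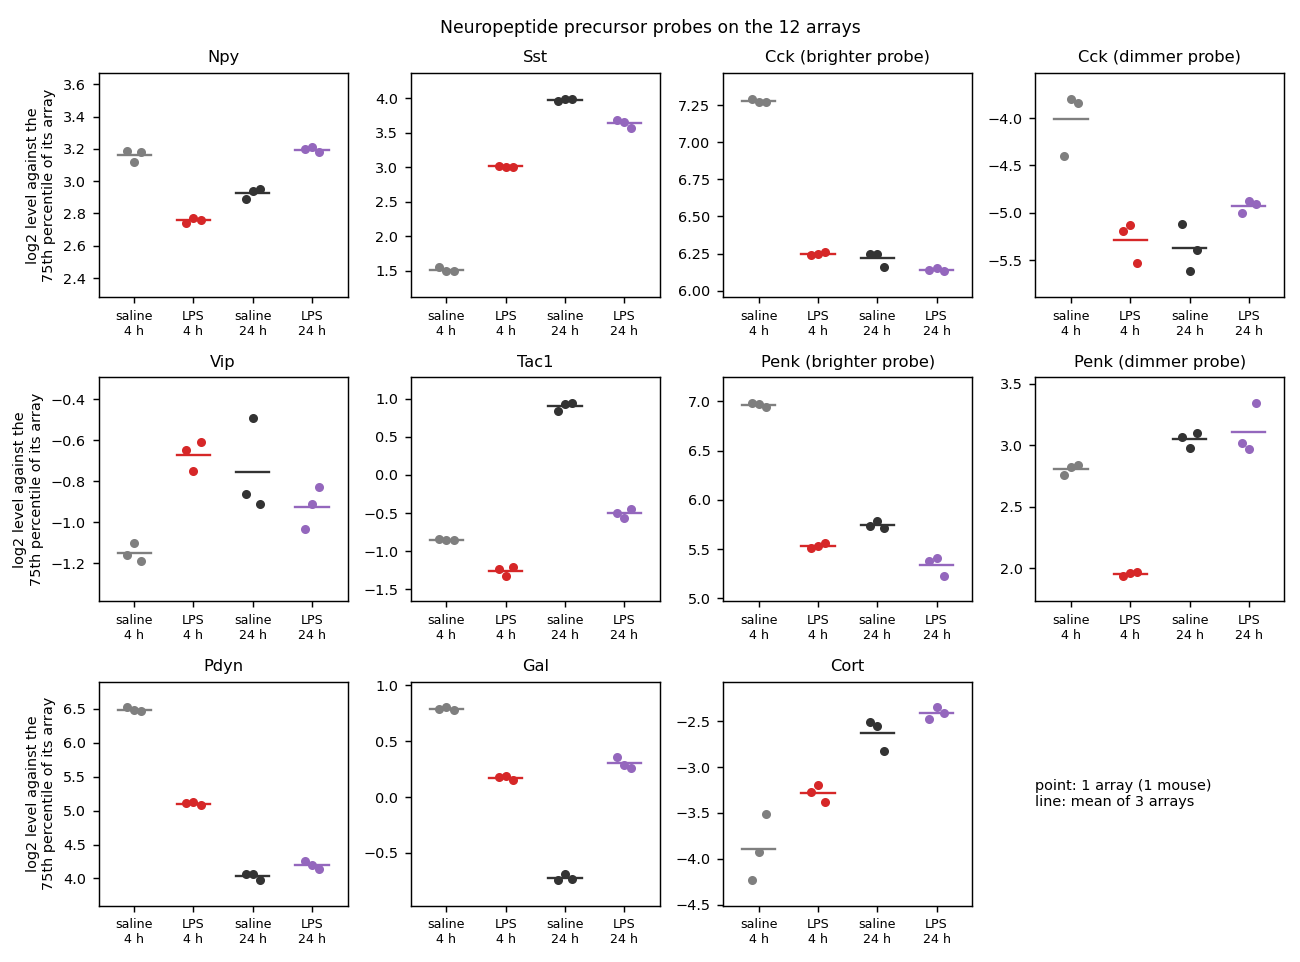
Level of each of the 11 neuropeptide probes on the 12 arrays (vertical axis: log2 against the 75th percentile of the array, with its own range in each panel; points: arrays; lines: means of 3). The saline arrays of 4 h lie apart from the other 9 for Sst, for Pdyn and for the brighter probes of Cck and Penk, while Tac1 is highest in saline at 24 h.

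Somatostatin comes from interneurons of the hilus and of stratum oriens that target dendrites, cells known to be vulnerable to seizures. The Sst probe (chr16:23889776-23889835, minus strand, mm9) stood at 1.56, 1.49 and 1.5 in saline at 4 h and at 3.02, 3.01 and 3.01 in LPS at 4 h. In saline at 24 h it stood at 3.96, 3.99 and 3.99, and in LPS at 24 h at 3.68, 3.66 and 3.57. The 4 groups did not overlap, and from low to high the order was saline then LPS among the arrays of 4 h, followed by LPS and then saline among those of 24 h. Against saline of the same time Sst was 2.81-fold higher at 4 h (1.49 ± 0.034 log2 units, SE, adjusted p = 5.68e-10, limma), at or above 96.3% of all probes, and 1.27-fold lower at 24 h (-0.34 ± 0.034, adjusted p = 3.91e-05, limma). The rise at 4 h depended on the control: set against saline at 24 h, Sst in LPS at 4 h was lower by 0.97 ± 0.034 (adjusted p = 5.79e-09, limma). The saline groups themselves differed by 2.46 ± 0.034, a 5.50-fold difference. In the deposited matrix the difference at 24 h was -0.31 with an adjusted p of 0.0503 in limma.

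Cort, whose peptide resembles somatostatin and binds the same receptors, was the dimmest member apart from the second Cck probe. It stood at -4.23, -3.93 and -3.51 in saline at 4 h, at -3.27, -3.20 and -3.38 in LPS at 4 h, at -2.51, -2.55 and -2.82 in saline at 24 h and at -2.48, -2.35 and -2.41 in LPS at 24 h. These 4 groups did not overlap, and the saline arrays of 4 h were the lowest, with intensities of only 19.8 to 34.8. Cort was higher by 0.60 ± 0.16 at 4 h (adjusted p = 0.00608, limma) and was not called at 24 h (0.21 ± 0.16, adjusted p = 0.319). With another background correction, normexp, the 4 h difference was 0.0807 (adjusted p = 0.736, limma).

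Neuropeptide Y is made by interneurons and, after seizures, by granule cells, and acts on Npy2r receptors of nerve endings to lower glutamate release. The Npy probe stood at 3.19, 3.12 and 3.18 in saline at 4 h, at 2.74, 2.77 and 2.76 in LPS at 4 h, at 2.89, 2.94 and 2.95 in saline at 24 h and at 3.20, 3.21 and 3.18 in LPS at 24 h. The high groups, saline at 4 h and LPS at 24 h, overlapped and did not differ beyond their spread (0.03 ± 0.03, adjusted p = 0.36, limma), and LPS at 4 h was the lowest. Npy was thus 1.33-fold lower at 4 h (-0.41 ± 0.03, adjusted p = 8.43e-07, limma) and 1.20-fold higher at 24 h (0.27 ± 0.03, adjusted p = 7.94e-05, limma), a rise that normexp did not call (0.24, adjusted p = 0.0592, limma). Neither was among the larger differences: 47.9% of all probes had an equal or smaller size of difference at 4 h and 66.0% at 24 h. Before scaling the direction at 4 h was the other one: intensities were 3360 to 3600 in saline and 4520 to 4930 in LPS, a rise of 0.46 log2 units that was smaller than the 0.87 by which the 75th percentile of the arrays rose. Relative to saline at 24 h, Npy in LPS at 4 h was lower by 0.17 ± 0.03 (adjusted p = 0.000526, limma).

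Cck marks a class of basket cells and is also made by some pyramidal cells. Its brighter probe (chr9:121399031-121399090, mm9) was among the brightest 0.614% of all probes. It stood at 7.29, 7.27 and 7.27 in saline at 4 h, at 6.24, 6.25 and 6.26 in LPS at 4 h, at 6.25, 6.25 and 6.16 in saline at 24 h and at 6.14, 6.15 and 6.13 in LPS at 24 h. Saline at 4 h was the only group to stand apart by a wide margin, and LPS at 4 h and saline at 24 h overlapped. Cck was 2.03-fold lower at 4 h (-1.02 ± 0.029, adjusted p = 1.74e-09, limma) and was not called at 24 h (-0.08 ± 0.029, adjusted p = 0.0563), where it was called lower when scaled by the median of each array (-0.151, adjusted p = 0.00714, limma), with 1 probe per gene (adjusted p = 0.043, limma) and with eBayes set to trend and robust (adjusted p = 0.0413, limma). The difference at 4 h was smaller under quantile normalization (-0.473) and was not called against saline at 24 h (0.03 ± 0.029, adjusted p = 0.32, limma). Unscaled, the probe changed less than the array did: intensities were 58000 to 61200 in saline and 51300 to 56000 in LPS at 4 h, while the 75th percentile rose by 0.87 log2 units. The second Cck probe (chr9:121402514-121402573, mm9) read a transcript at intensities of 14.5 to 31.0 and was above background on only 1 of 3 arrays of LPS at 4 h. It was lower by 1.27 ± 0.18 at 4 h (adjusted p = 0.000111, limma) and was not called at 24 h (0.44 ± 0.18, adjusted p = 0.0739). With normexp the 4 h difference was -0.447 and no longer called (adjusted p = 0.166, limma), and in the deposited matrix it was -0.354. The 24 h difference was called higher with the slide as a block (adjusted p = 0.0347, limma) and with only the arrays compared in the fit (adjusted p = 0.0378, limma).

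Vip comes from interneurons that mostly inhibit other interneurons. The Vip probe stood at -1.16, -1.10 and -1.19 in saline at 4 h, at -0.65, -0.75 and -0.61 in LPS at 4 h, at -0.86, -0.49 and -0.91 in saline at 24 h and at -1.03, -0.91 and -0.83 in LPS at 24 h. Saline at 4 h was the lowest group and clear of the others, while saline at 24 h overlapped both LPS groups. Vip was 1.40-fold higher at 4 h (0.48 ± 0.10, adjusted p = 0.00177, limma), and was not called at 24 h (-0.17 ± 0.10, adjusted p = 0.206) or for LPS at 4 h against saline at 24 h (0.08 ± 0.10, adjusted p = 0.494). Vip, Sst and Cort were the 3 members higher in LPS at 4 h. Of 12 marker genes of GABA interneurons, 6 were higher and 2 lower at 4 h (4 and 4 when scaled by the median of each array), and 1 was higher and 7 lower at 24 h. Over all 18169 genes, 5235 were higher and 8125 lower at 4 h, and 3833 higher and 4498 lower at 24 h. When saline at 24 h was the control, 8 of the 12 were lower in LPS at 4 h and none was higher, beside 6024 lower and 7179 higher of all genes. Against saline of the same time, examples were Reln (1.10 ± 0.053, adjusted p = 4.61e-08, limma) and Nos1 (0.83 ± 0.036, adjusted p = 2.42e-08, limma) at 4 h, and Slc32a1, the vesicular GABA transporter, at 24 h (-0.35 ± 0.034, adjusted p = 3.35e-05, limma). Gad1 of the same list went the other way at 4 h (-0.60, and -0.77 to -0.39 across scalings and background corrections, called in each). At 4 h the differences of Slc32a1 (-0.07) and Gad2 (0.06) were small. The summed level of the 12 genes was 65.0 to 65.3 in saline and 66.2 to 68.1 in LPS at 4 h, and 84.1 to 88.7 in saline and 68.3 to 72.1 in LPS at 24 h, in multiples of the 75th percentile. Its part in the peptide differences was not tested.

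Prodynorphin (Pdyn) is made by granule cells, and its dynorphins act on the kappa opioid receptor at mossy fibre endings. The Pdyn probe (chr2:129512323-129512382, mm9) stood at 6.52, 6.48 and 6.47 in saline at 4 h, at 5.11, 5.12 and 5.08 in LPS at 4 h, at 4.06, 4.06 and 3.98 in saline at 24 h and at 4.26, 4.20 and 4.14 in LPS at 24 h. The groups were all clear of each other, and they ran in the reverse of the order of Sst, highest in saline at 4 h and lowest in saline at 24 h. Pdyn was 2.62-fold lower at 4 h (-1.39 ± 0.038, adjusted p = 1.48e-09, limma), a difference at or below which only 1.38% of all probes lay, and 1.12-fold higher at 24 h (0.17 ± 0.038, adjusted p = 0.00619, limma). With saline at 24 h as control, the probe in LPS at 4 h was higher by 1.07 ± 0.038 (adjusted p = 6.21e-09, limma), so that the direction at 4 h depended on the control. Under quantile normalization the difference at 4 h was -0.905. The small rise at 24 h was not called with the median of each array as the scale (0.0921, adjusted p = 0.155, limma) or with normexp (0.164, adjusted p = 0.271, limma).

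Proenkephalin (Penk), the precursor of the enkephalins that act on mu and delta opioid receptors, had 2 probes on chromosome 4. The brighter one (chr4:4060735-4060794, mm9) lay downstream, on the minus strand, of the dimmer one (chr4:4061458-4061517). The brighter probe stood at 6.98, 6.97 and 6.94 in saline at 4 h, at 5.51, 5.53 and 5.56 in LPS at 4 h, at 5.73, 5.78 and 5.71 in saline at 24 h and at 5.38, 5.41 and 5.23 in LPS at 24 h. The dimmer probe stood at 2.76, 2.82 and 2.84, at 1.94, 1.96 and 1.97, at 3.07, 2.98 and 3.1, and at 3.02, 2.97 and 3.34 in the same order of groups. Both probes were lower in LPS at 4 h, by 1.43 ± 0.046 (adjusted p = 3.8e-09, limma) and by 0.85 ± 0.084 (adjusted p = 7.83e-06, limma), and both were also lower against saline at 24 h, by 0.20 ± 0.046 (adjusted p = 0.00265, limma) and 1.09 ± 0.084 (adjusted p = 1.33e-06, limma). At 24 h they disagreed: the brighter was lower by 0.40 ± 0.046 (adjusted p = 9.86e-05, limma) and the dimmer did not pass the test (0.06 ± 0.084, adjusted p = 0.615). The gap between the 2 probes was 4.16 ± 0.062 in saline at 4 h, 3.58 ± 0.013 in LPS at 4 h, 2.69 ± 0.10 in saline at 24 h and 2.23 ± 0.29 log2 units in LPS at 24 h (SD, n = 3), and it did not overlap between any of the groups. Because the probes disagree, the size of the Penk response is uncertain. Unscaled, the dimmer probe differed by 0.02 log2 units between LPS and saline at 4 h and the brighter by -0.56.

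Galanin acts on inhibitory receptors of hippocampal neurons. The Gal probe (chr19:3411143-3411202, mm9) stood at 0.79, 0.80 and 0.78 in saline at 4 h, at 0.18, 0.19 and 0.15 in LPS at 4 h, at -0.74, -0.69 and -0.73 in saline at 24 h and at 0.36, 0.29 and 0.26 in LPS at 24 h. Saline at 4 h was the highest group and saline at 24 h the lowest, with both LPS groups between them. Gal was 1.53-fold lower at 4 h (-0.62 ± 0.031, adjusted p = 6.35e-08, limma) and 2.04-fold higher at 24 h (1.03 ± 0.031, adjusted p = 1.09e-08, limma). Before scaling the direction at 4 h was the other one, with intensities of 643 to 681 in saline and 744 to 837 in LPS. A rise of 2-fold or more at 24 h was called for 2.57% of all probes. Compared with saline at 24 h, Gal in LPS at 4 h was also higher, by 0.90 ± 0.031 (adjusted p = 4.78e-09, limma), and against saline at 4 h Gal in LPS at 24 h was lower by 0.49 ± 0.031 (adjusted p = 1.71e-07, limma).

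Tac1 encodes substance P and neurokinin A, which excite neurons through Tacr1 and Tacr2. The probe shown above stood at -0.84, -0.85 and -0.85 in saline at 4 h, at -1.23, -1.32 and -1.21 in LPS at 4 h, at 0.84, 0.93 and 0.94 in saline at 24 h and at -0.50, -0.56 and -0.44 in LPS at 24 h. Saline at 24 h was the high group, and the 3 others lay close together without overlapping. Tac1 was 1.33-fold lower at 4 h (-0.41 ± 0.043, adjusted p = 1.24e-05, limma) and 2.64-fold lower at 24 h (-1.40 ± 0.043, adjusted p = 1.26e-08, limma), and at 24 h only 0.0903% of all probes had a difference as low. A fall of 2-fold or more at 24 h was called for 0.224% of all probes. At 4 h the direction was the other one before scaling, by 0.46 log2 units (208 to 220 in saline and 278 to 314 in LPS), and set against saline at 24 h Tac1 in LPS at 4 h was lower by 2.16 ± 0.043 (adjusted p = 1.34e-10, limma). Against saline at 4 h, Tac1 in LPS at 24 h was higher by 0.35 ± 0.043 (adjusted p = 3.29e-05, limma). The other 2 Tac1 probes (chr6:7515469-7515528 and chr6:7513978-7514036, mm9) match another transcript sequence, were above background on 1 and 0 of 12 arrays at intensities of 1.94 to 14.5, and were not tested.

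Markers of striatal projection neurons, which hold much Tac1 and Penk mRNA, moved with Tac1. Of 10 such genes 9 were lower and none was higher in LPS at 24 h (median -1.51, beside -0.02 over all genes), and at 4 h 5 were lower and 1 higher (median -0.42, beside -0.15). Over all 18169 genes, 4498 were lower and 3833 higher at 24 h, and 8125 lower and 5235 higher at 4 h. With saline at 24 h as control, all 10 were lower in LPS at 4 h, 3 of which (Gpr6, Six3 and Isl1) had passed the filter through the 24 h groups alone. Against that control 6024 of all genes were lower and 7179 higher. At 24 h Adora2a, an adenosine receptor, was lower by 2.61 ± 0.058 (adjusted p = 2.77e-09, limma), Rgs9 by 1.70 ± 0.04 (adjusted p = 3.2e-09, limma) and Drd1, a dopamine receptor, by 1.33 ± 0.037 (adjusted p = 6.62e-09, limma). The summed level of the 10 genes was 8.78 to 8.95 times the 75th percentile in saline at 24 h, against 2.60 to 2.62 in LPS at 24 h, 2.02 to 2.06 in saline at 4 h and 1.74 to 1.76 in LPS at 4 h. Of the 10, Gpr6 and Six3 were above background on no array of 4 h and Isl1 on 1, and all 10 were above background on every array of 24 h. Over the 12 arrays the 3 genes with a plain symbol whose levels followed Tac1 most closely included Adora2a (r = 0.995) and Pxdn (r = 0.988), a description over arrays that share 4 group levels. The part of striatal tissue in the differences of Tac1 and Penk was not tested. The Penk probes went opposite ways between the saline groups: the dimmer was higher at 24 h than at 4 h by 0.25 ± 0.084 (adjusted p = 0.0211, limma) and the brighter lower by 1.22 ± 0.046 (adjusted p = 3.05e-09, limma).

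**Figure D2:**
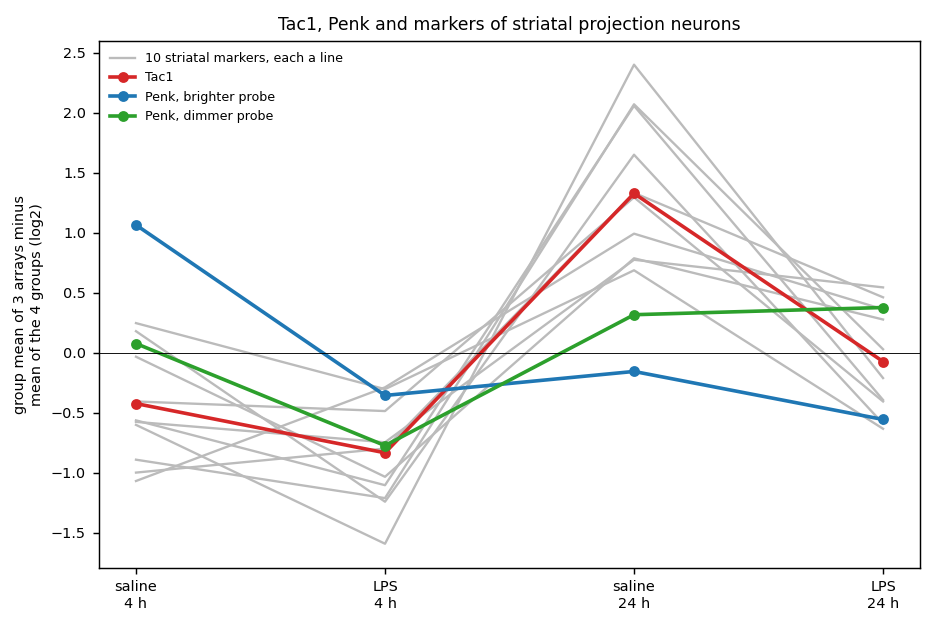
Group means of Tac1, of both Penk probes and of 10 striatal marker genes (vertical axis: mean of 3 arrays minus the mean of the 4 groups, log2 units; grey lines: 1 marker each). Tac1 and the markers peak together in saline at 24 h, whereas the Penk probes do not.

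The response to LPS was set between the times with an interaction term, which 65.9% of all probes passed (36.9% higher and 28.9% lower). Of the 11 member probes 7 responded more positively at 24 h than at 4 h and 3 less, and Cort was not called (-0.39 ± 0.22, adjusted p = 0.148, limma). Gal changed from a fall to a rise (difference of responses 1.64 ± 0.044, adjusted p = 3.45e-09, limma), as did Npy (0.68 ± 0.042, adjusted p = 4.62e-07, limma) and Pdyn (1.56 ± 0.054, adjusted p = 1.22e-08, limma). Sst changed from a rise to a fall (-1.83 ± 0.048, adjusted p = 3.36e-09, limma). All of these values use the saline arrays of 4 h, which stood apart.

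Each response was therefore also set against the saline arrays of the other time. Of all probes 71% were called for LPS at 4 h against saline at 24 h and 79.9% for LPS at 24 h against saline at 4 h. These are shares against a single control. The share of all probes called against both saline groups was not computed, so the counts that follow describe the members only. At 4 h, 4 of the 11 probes were called in the same direction against both saline groups, all lower: Npy, Tac1 and both Penk probes. Another 4 were called in opposite directions (Sst, Pdyn, Gal and Cort), and 3 were not called against saline at 24 h (both Cck probes and Vip). At 24 h, 1 probe, the brighter one of Penk, was lower against both saline groups, by 0.40 ± 0.046 and 1.62 ± 0.046, and 4 were called in opposite directions (Sst, Tac1, Pdyn and Gal). The fall of Tac1 and the rise of Gal at 24 h, the largest differences there, were thus measured against saline arrays that were respectively the highest and the lowest of the 4 groups.

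**Figure D3:**
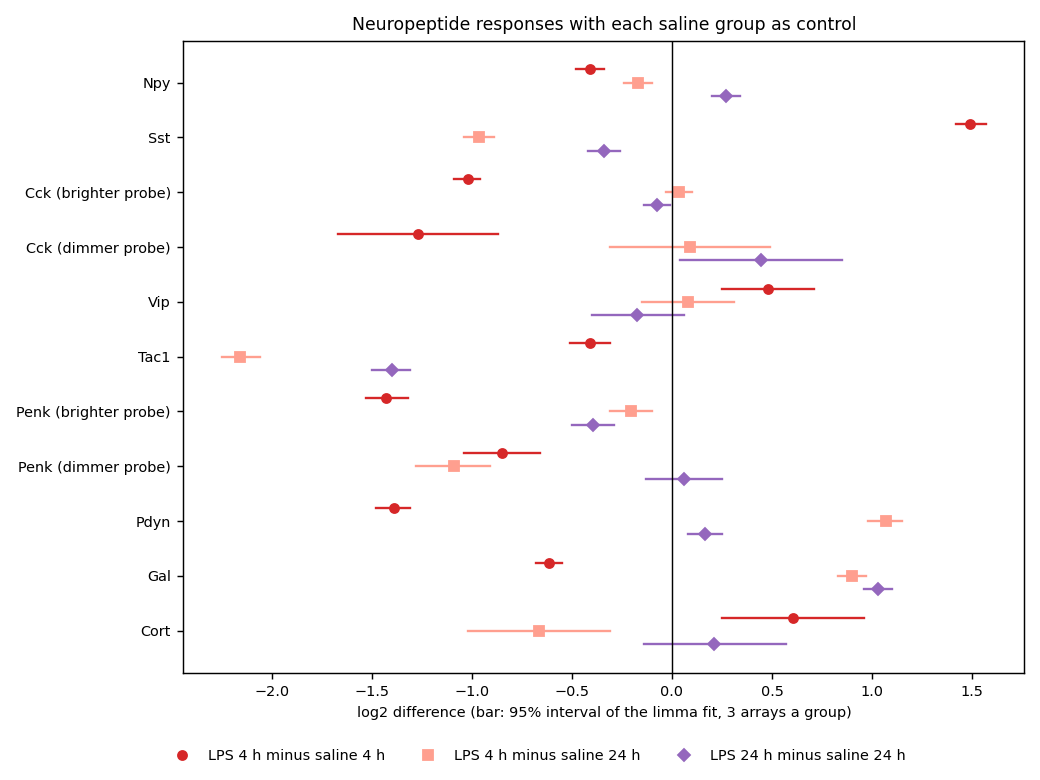
Difference between LPS and saline for each neuropeptide probe (horizontal axis: log2 difference with its 95% interval from limma, 3 arrays a group), with LPS at 4 h set against saline at 4 h (circles) and at 24 h (squares) and LPS at 24 h against saline at 24 h (diamonds). Sst, Pdyn, Gal and Cort cross 0 when the control of LPS at 4 h is exchanged.

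The differences at 4 h also moved with the brightness of a probe. Among the brightest 1% of all probes (276 probes) the median difference at 4 h was -0.58, with the 10th to 90th percentile at -0.90 to -0.06, and among the dimmest 25% the median was 0.03. The brighter Cck probe (-1.02) lay below the range of the brightest 1%. The brighter Penk probe (-1.43, at the brightest 1.04%) and Pdyn (-1.39, at the brightest 2.64%) lay below the range of the next class, -0.84 to 0.14. Sst (1.49, at the brightest 10%) lay above the range of -0.73 to 0.57 in the class from 10% to 25%, and the dimmer Penk probe (-0.85, at the brightest 11.8%) lay below it. The second Cck probe (-1.27) lay below the range of -0.82 to 1.21 of the dimmest 25%, whereas Npy, Gal, Tac1, Vip and Cort lay inside those of their classes. At 24 h the median by brightness stayed between -0.08 and 0.13, and Tac1 (-1.40) and Gal (1.03) lay outside the range of -0.33 to 0.36 of their class. Sst (-0.34) and Npy (0.27) lay just outside the range of -0.30 to 0.25 of theirs, the brighter Penk probe (-0.40) lay below the range of -0.29 to 0.18, and the other 6 probes lay inside. The part of brightness in the differences was not tested.

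**Figure D4:**
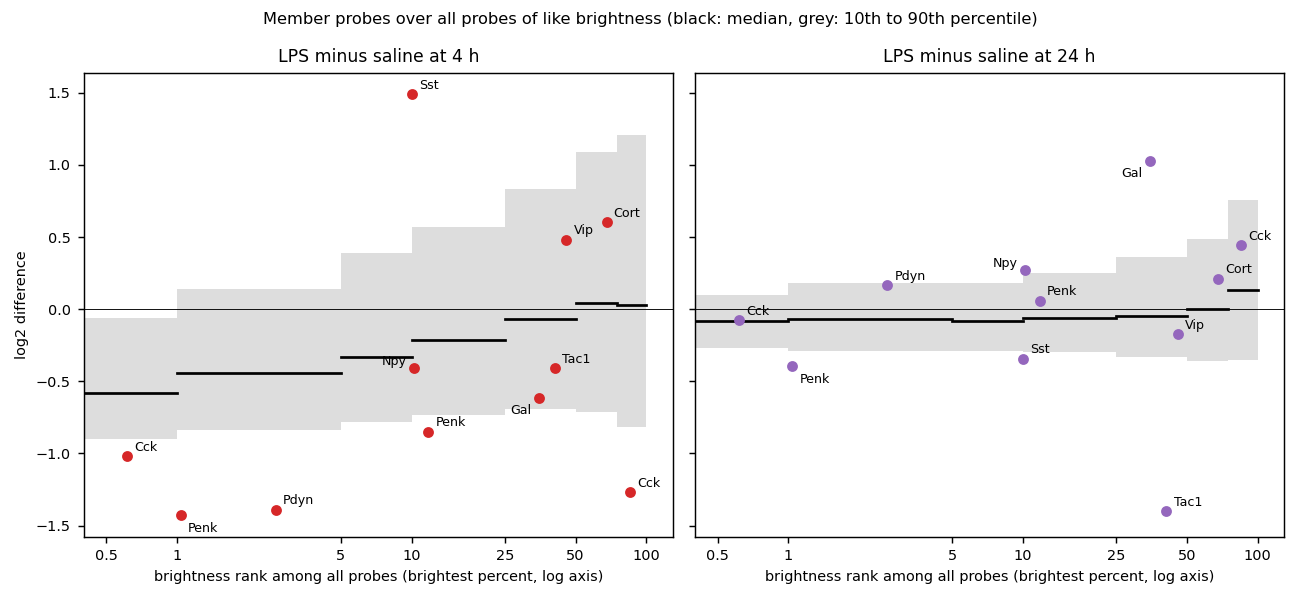
Log2 difference between LPS and saline of each neuropeptide probe (points) against its rank in brightness among all probes (log axis, brightest at left), at 4 h and 24 h. Black lines give the median and grey bands the 10th to 90th percentile of all probes in each brightness class. The median falls to -0.58 in the brightest class at 4 h and stays near 0 at 24 h.

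Receptors for these peptides were described from a list of 23 genes, of which 22 had a probe and 17 passed. At 4 h 7 were higher and 6 lower (median -0.28, beside -0.15 over all 18169 genes), and at 24 h 3 were higher and 4 lower (median -0.07, beside -0.02). Over all genes, 5235 were higher and 8125 lower at 4 h, and 3833 higher and 4498 lower at 24 h. Tacr3, among those higher at 4 h, was above background on no array of 4 h (mean intensities 3.99 in saline and 12 in LPS). Oprm1, among those lower at 4 h, was above background on 1 array of 4 h (13.1 and 8.05). In the deposited matrix the median at 4 h was 0.03. Under normexp 2 were higher and 4 lower at 4 h, and 1 higher and 2 lower at 24 h. Relative to saline at 24 h, 13 of the 17 were lower in LPS at 4 h and 2 higher, but 6 of the 13 (Sstr1, Sstr3, Tacr1, Tacr3, Oprm1 and Oprk1) were above background throughout at 24 h alone and had passed the filter through those groups, which fixed much of their direction. Against that control 6024 of all genes were lower and 7179 higher. Each list gene is given by its brightest probe. Crhr1, the main receptor of Crh, was lower by 1.63 ± 0.035 at 4 h (adjusted p = 3.91e-10, limma), and Crhr2 by 0.62 ± 0.035 (adjusted p = 1.51e-07, limma). Against saline at 24 h the fall of Crhr1 in LPS at 4 h was 0.27 ± 0.035 (adjusted p = 6.91e-05, limma). Npy2r, which holds back glutamate release, was higher by 1.36 ± 0.096 at 4 h (adjusted p = 6.26e-07, limma) and lower by 0.99 ± 0.096 at 24 h (adjusted p = 3.03e-05, limma). Its group means were -3.88 with saline and -2.51 with LPS at 4 h, and -0.85 with saline and -1.85 with LPS at 24 h, the same order as Sst, and its sign at 4 h turned against saline at 24 h (-1.66 ± 0.096, adjusted p = 1.69e-07, limma). Npy1r was lower at both times, by 0.33 ± 0.032 (adjusted p = 6.22e-06, limma) and 0.30 ± 0.032 (adjusted p = 5.87e-05, limma), and Npy5r was lower at 24 h by 0.35 ± 0.039 (adjusted p = 7.44e-05, limma). Vipr2 was lower by 0.57 ± 0.041 at 4 h (adjusted p = 7.73e-07, limma) and higher by 0.27 ± 0.041 at 24 h (adjusted p = 0.000531, limma), a rise that was not called under 2 of the 4 other scalings and background corrections (0.14 at the lowest). Among somatostatin receptors Sstr2 was higher by 0.42 ± 0.042 at 4 h (adjusted p = 9.02e-06, limma) and Sstr4 lower by 0.38 ± 0.045 at 24 h (adjusted p = 0.000106, limma), where Crhr2 was higher by 0.23 ± 0.035 (adjusted p = 0.000639, limma). Under 1 of those 4 alternatives each, the falls of Npy1r at both times and of Npy5r at 24 h and the rise of Sstr2 at 4 h were not called. The directions of Vipr2 and Sstr2 at 4 h also turned against saline at 24 h. Group means in LPS at 4 h and saline at 24 h were -1.73 and -2.88 for Vipr2, and -1.86 and -1.16 for Sstr2. Galr1, Galr2, Cckar, Tacr2 and Oprd1 did not pass the filter.

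The machinery that makes active peptide from these precursors was taken as 12 genes, all measured: convertases, trimming and amidating enzymes, and granule proteins. At 4 h all 12 were lower than in saline at 4 h (median -0.45), but under quantile normalization 7 were lower and 4 higher (median -0.18), and in the deposited matrix 5 were lower and 4 higher. Over all 18169 genes, 8125 were lower and 5235 higher at 4 h as scaled here. Several of the 12 were very bright, such as Chgb and Cpe (8.75 and 7.82 in saline at 4 h), while Pam and Qpct were not (-0.67 and -0.44). Among all probes the median difference at 4 h was -0.58 in the brightest 1% and -0.44 in the brightest 1% to 5%. The part of brightness in these falls was not tested. When saline at 24 h was the control, 4 were lower in LPS at 4 h and 4 higher (median 0.05), beside 6024 lower and 7179 higher of all genes. Of the genes named here Pam kept its fall against that control (1.21 ± 0.066, adjusted p = 1.13e-07, limma), while Chgb (0.41 ± 0.037, adjusted p = 4.5e-06, limma), Pcsk1 (0.44 ± 0.051, adjusted p = 2.71e-05, limma) and Pcsk2 (0.26 ± 0.039, adjusted p = 0.000164, limma) were higher. Scg2 and Cpe were not lower there. Their group means in LPS at 4 h and saline at 24 h were 3.93 and 3.77 (Scg2) and 7.38 and 7.36 (Cpe). The means of Qpct (-0.68 and -0.53) and Scg3 (4.87 and 4.93) stayed lower in LPS at 4 h. Scg2, a granule protein, was lower by 1.69 ± 0.092 (adjusted p = 1.11e-07, limma), Chgb, another, by 0.92 ± 0.037 (adjusted p = 1.53e-08, limma), the amidating enzyme Pam by 0.82 ± 0.066 (adjusted p = 1.7e-06, limma) and the convertase Pcsk1 by 0.76 ± 0.051 (adjusted p = 4.7e-07, limma). The convertase Pcsk2 was lower by 0.47 ± 0.039 (adjusted p = 2.07e-06, limma), and Cpe, which trims the cut ends, by 0.44 ± 0.044 (adjusted p = 8.81e-06, limma), although Cpe turned to a rise of up to 0.23 under other scalings. The fall of Pcsk2 shrank to -0.06 and was not called under 2 of the 4 alternatives, and that of Chgb shrank to -0.19 and was not called under 1. At 24 h 3 of the 12 were higher and 5 lower, beside 3833 higher and 4498 lower of all genes. Pam was higher by 0.61 ± 0.066 (adjusted p = 6.83e-05, limma), Scg2 by 0.54 ± 0.092 (adjusted p = 0.00121, limma) and Scg3 by 0.17 ± 0.031 (adjusted p = 0.00172, limma), while Qpct, which closes the start of some peptides, was lower by 0.41 ± 0.044 (adjusted p = 5.98e-05, limma), Chgb by 0.25 ± 0.037 (adjusted p = 0.000505, limma) and Pcsk2 by 0.21 ± 0.039 (adjusted p = 0.00182, limma). At 24 h Scg3 was not called under 2 of the 4 alternatives and Pcsk2 under 1.

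Of 10 genes that end peptide signals, 3 were higher and 2 lower at 4 h (median 0.05), when 5235 of all 18169 genes were higher and 8125 lower, so a smaller share of the list than of all genes was called. At 24 h 5 were higher and 2 lower (median 0.15), beside 3833 higher and 4498 lower of all genes. With saline at 24 h as control, 3 were higher and 6 lower in LPS at 4 h, beside 7179 higher and 6024 lower of all genes. Thop1 was lower against that control by 0.86 ± 0.034 (adjusted p = 1.23e-08, limma). The peptidase Thop1 was higher by 1.06 ± 0.034 at 4 h (adjusted p = 3.74e-09, limma) and Prep by 0.58 ± 0.041 (adjusted p = 7.16e-07, limma). Ece1, which breaks down several peptides after uptake, was lower by 0.68 ± 0.04 (adjusted p = 1.9e-07, limma). The directions of Prep and Ece1 at 4 h turned against saline at 24 h. Group means in LPS at 4 h and saline at 24 h were -0.08 and 0.1 for Prep, and 3.34 and 2.56 for Ece1. Crhbp, the protein that binds Crh, was lower by 0.26 ± 0.041 at 4 h (adjusted p = 0.000234, limma) and higher by 0.53 ± 0.041 at 24 h (adjusted p = 7.3e-06, limma). Also higher at 24 h were the peptidases Ace by 0.82 ± 0.074 (adjusted p = 2e-05, limma), Anpep by 0.51 ± 0.055 (adjusted p = 6.22e-05, limma) and Ece1 by 0.19 ± 0.04 (adjusted p = 0.00421, limma), the last not called under 2 of the 4 alternatives.

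Of 17 other brain peptide precursors 16 passed. At 4 h 5 were higher and 8 lower (median -0.32), and at 24 h 7 were higher and 3 lower (median 0.03). Over all 18169 genes, 5235 were higher and 8125 lower at 4 h, and 3833 higher and 4498 lower at 24 h. Compared with saline at 24 h, 9 were higher and 4 lower in LPS at 4 h, beside 7179 higher and 6024 lower of all genes. Like Gal, the precursors Cartpt and Ucn were lower at 4 h and higher at 24 h. Cartpt, made by granule cells, was lower by 1.33 ± 0.05 (adjusted p = 1.03e-08, limma) and then higher by 1.73 ± 0.05 (adjusted p = 8.79e-09, limma). Ucn, which encodes a ligand of both Crh receptors, was lower by 2.20 ± 0.057 (adjusted p = 1.08e-09, limma) and then higher by 0.90 ± 0.057 (adjusted p = 1.8e-06, limma), but against saline at 24 h Ucn in LPS at 4 h was higher by 1.67 ± 0.057 (adjusted p = 4.41e-09, limma). Cartpt was lower against that control too, by 0.35 ± 0.05 (adjusted p = 0.00014, limma). Adcyap1, the precursor of PACAP, was lower by 1.62 ± 0.045 at 4 h (adjusted p = 1.64e-09, limma) but higher by 0.31 ± 0.045 against saline at 24 h (adjusted p = 0.000174, limma). Also lower at 4 h were Pomc by 0.78 ± 0.044 (adjusted p = 1.38e-07, limma) and Pnoc by 0.54 ± 0.037 (adjusted p = 5.58e-07, limma). Pomc turned against saline at 24 h, with group means of 1.19 in LPS at 4 h and 0.54 in saline at 24 h. Adm, a vasodilator peptide, was higher by 0.79 ± 0.05 (adjusted p = 2.98e-07, limma). At 24 h Trh was higher by 0.51 ± 0.048 (adjusted p = 2.38e-05, limma), and Avp, Nts and Nmb were lower by 0.75 ± 0.075 (adjusted p = 3.78e-05, limma), 0.72 ± 0.057 (adjusted p = 7.96e-06, limma) and 0.39 ± 0.055 (adjusted p = 0.000373, limma).

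Markers of other tissue also differed between the groups. Their counts stand beside 5235 higher and 8125 lower of all 18169 genes at 4 h, and 3833 higher and 4498 lower at 24 h. Genes of hippocampal granule and pyramidal cells were higher at 4 h (10 of 12, none lower, for example Camk2a by 1.01 ± 0.03, adjusted p = 2.33e-09, limma) and lower at 24 h (9 of 12, none higher, for example Lct by 1.56 ± 0.048, adjusted p = 1.31e-08, limma). Their summed level ran from 43.3 to 43.9 in saline at 4 h, 65.1 to 66.5 in LPS at 4 h, 89.2 to 90.9 in saline at 24 h and 71.5 to 73.4 in LPS at 24 h, in the order seen for Sst and Npy2r. Of 10 hypothalamic and pituitary genes 6 were lower and 1 higher at 4 h, and 3 lower and 1 higher at 24 h. Cga, among the 6, had passed the filter through saline at 4 h alone, which fixed much of its direction. Cga and Gh, another of the 6, were above background on no array of LPS at 4 h. Their mean intensities in saline and LPS at 4 h were 47.1 and 5 (Cga) and 33.6 and 8.33 (Gh). Prl, the pituitary hormone prolactin, stood at 0.45 in saline at 4 h and was lower by 3.84 ± 0.14 in LPS at 4 h (adjusted p = 8.29e-09, limma) and by 2.51 ± 0.14 at 24 h (adjusted p = 7.78e-07, limma). Of the 7 thalamic genes all were higher at 24 h, but 5 when scaled by the median or in the deposited matrix and 4 with normexp (for example Prkcd by 1.26 ± 0.048, adjusted p = 6.08e-08, limma), and at 4 h 5 were lower and 2 higher (Tcf7l2 lower by 1.29 ± 0.051, adjusted p = 1.33e-08, limma). Of 8 astrocyte and microglia genes 5 were lower and 3 higher at 4 h, when 8125 of all 18169 genes were lower and 5235 higher, and all 8 were higher at 24 h, with Aif1 lower by 0.84 ± 0.034 (adjusted p = 1.56e-08, limma) and then higher by 0.80 ± 0.034 (adjusted p = 1.21e-07, limma). Of 6 choroid plexus genes 3 were lower and 2 higher at 4 h, shares close to those over all genes, and 4 were higher and none lower at 24 h. Of 8 genes of cortex and amygdala 4 were higher and 2 lower at 4 h, and 1 was higher and 3 lower at 24 h. With the controls exchanged, LPS at 4 h had 8 of the 12 hippocampal genes lower, all 7 thalamic genes higher and 7 of the 8 astrocyte and microglia genes higher. Over all genes, 7179 were higher and 6024 lower in that comparison. What part such differences in the tissue taken had in the peptide values was not tested.

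Each slide carried 1 saline and 1 LPS array of the same time, so that every response could be read within 3 slides. At 4 h the within-slide differences were 1.45, 1.53 and 1.51 for Sst, -1.44, -1.37 and -1.36 for Pdyn and -1.03, -1.02 and -1.02 for the brighter Cck probe. At 24 h they were -1.34, -1.48 and -1.38 for Tac1 and 1.10, 0.99 and 1.00 for Gal. The responses of these members were thus of like size on every slide. The plot of all alternatives sets these values beside those of other processing choices and of the exchanged control group.

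**Figure D5:**
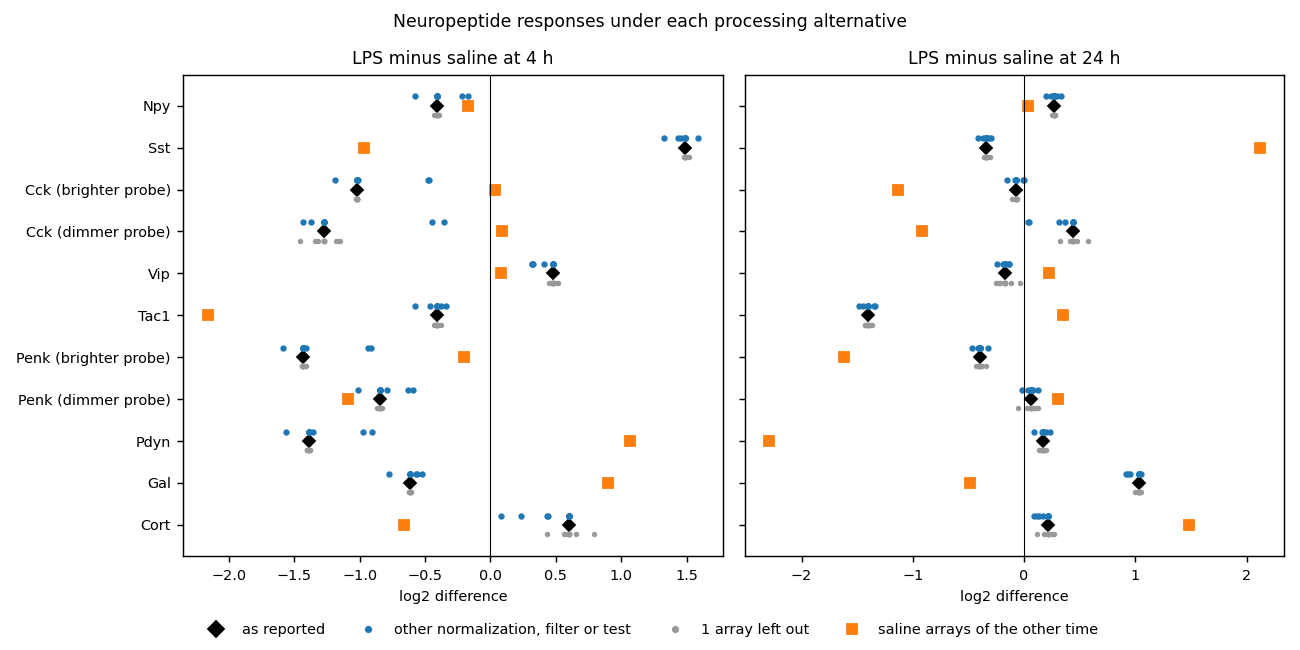
Log2 difference between LPS and saline for each neuropeptide probe at 4 h and 24 h as reported (black), under other normalizations, filters and tests (blue), with 1 array left out (grey) and with the saline arrays of the other time as controls (orange). Sst at 4 h ranges from 1.33 to 1.59 in blue and is -0.97 in orange.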

How the data were processed

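Hippocampal RNA of 12 mice was measured on one-colour Agilent arrays, 3 per group, grouped by the treatment and time in the labels. The deposited intensity values are background-subtracted Cy3 signals, written by Feature Extraction 10.7.3.1 per the file headers (9.1 per the submitters' processing notes). The authors also deposited a matrix of log2 values. Its values were matched, to a largest difference of 4.5e-10, by normexp background correction (offset 50), quantile normalization on the linear scale and the first spot of each probe. It served as an alternative here. Probe coordinates are those of mm9 in the array files, and promoter coordinates are those of GRCm38.p6.

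From 45018 spots per array, control spots were left out, as were spots with outlier flags, 926 over the 12 arrays together. The spots of a probe were averaged, and 27671 of 41174 transcript probes were kept, each well above background on every array of some group. No transcript spot was saturated. Log2 of each intensity minus log2 of the 75th percentile of its array was fitted with limma 3.58.1 in R 4.3.3 (4 group means, eBayes, Benjamini-Hochberg adjustment over all probes kept). Intervals are at 95%. With 3 arrays a group, the number of arrays limits the precision. In simulated data at 4 h and 24 h, run on 27667 probes, 64 and 72 of 100 probes changed by 1.5-fold were recovered, and 81 and 74 of 100 changed by 2-fold. Only 200 probes were changed in each simulated LPS group. In the real comparisons 71.2% and 42.7% of all probes were called, so the adjustment was less strict there. The simulated shares therefore do not give the power of the real comparisons. Probe names came from the files, updated through RefSeq by accession or symbol. The names of 4637 probes differed between the 2 design versions used at 4 h and 24 h (Penk is Penk1 in one).

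The members and the gene lists were chosen with earlier results of these data known. Text names all 10 members, up to 6 genes with the smallest adjusted p in each LPS comparison from the lists of receptors, processing genes and other peptides, up to 4 from the remaining lists, and the 3 genes most correlated with each member. Genes named only to state a limit stand outside this rule. Alternatives were other scalings and background corrections, filters, blocks, moderation, samples in the fit, left-out arrays and the saline arrays of the other time as controls. A gene that the rule for named genes selected is not reported here.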

Additional observations from a re-analysis of the deposited data

Results flagged for a closer look

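For 10 of the 11 probes the response to LPS differed between the times by an interaction term (response at 24 h minus response at 4 h, log2, limma, Benjamini-Hochberg adjustment over all probes), which 65.9% of all probes also passed. The response was more positive at 24 h for Gal (1.64, adjusted p = 3.45e-09), Pdyn (1.56, adjusted p = 1.22e-08), the brighter Cck probe (0.95, adjusted p = 4.4e-08), the dimmer Cck probe (1.71, adjusted p = 0.000198), the brighter Penk probe (1.03, adjusted p = 4.85e-07), the dimmer Penk probe (0.91, adjusted p = 8.2e-05) and Npy (0.68, adjusted p = 4.62e-07). It was more negative at 24 h for Sst (-1.83, adjusted p = 3.36e-09), Tac1 (-0.99, adjusted p = 4.1e-07) and Vip (-0.65, adjusted p = 0.00261). The 2 times were scanned in separate runs, and each response rests on the saline arrays of its own time.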

How the results depend on the processing

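Exchanging the saline arrays for those of the other time turned the most values. At 4 h it gave Sst -0.97, the Cck probes 0.0335 and 0.0907, Pdyn 1.07, Gal 0.90 and Cort -0.66. At 24 h it gave Sst 2.12, the dimmer Cck probe -0.92, Vip 0.23, Tac1 0.35, Pdyn -2.29 and Gal -0.49, with 5 member probes called lower and 22118 of all probes called. Fewer probes were called under normexp: 12079 of all probes at 4 h, 4432 at 24 h and 10074 for the interaction, with 1 member probe higher at 24 h (Gal) and Cort's interaction at 0.0325. The cause was not tested. With normexp 5 of the 12 hippocampal granule and pyramidal cell genes were lower at 24 h in place of 9, and 3 of the 10 striatal genes at 4 h in place of 5. Values near 0 turned for the dimmer Penk probe at 24 h (-0.015 scaled by the median, -0.0554 without LPS array 3) and for Cck at 24 h (0.000621 under quantile normalization). Between the saline groups Npy turned under quantile normalization (0.13) and in the deposited matrix (0.16), and 3 member probes were higher when scaled by the median. Leaving out 1 array at a time kept 11 member probes called at 4 h and 6 to 7 at 24 h.

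The replicate numbers were not taken to pair arrays, since residuals of same-numbered arrays correlated at 0.08, 0.17 and -0.15 at 4 h and 0.03, 0.08 and 0.07 at 24 h. With the replicate block the counts of member probes did not move: 3 higher and 8 lower at 4 h, then 3 of each at 24 h, and 19266 and 10393 of all probes were called. With the slide as a block 7 member probes were called at 24 h, 4 of them higher, the dimmer Cck probe being added. Dim probes (Cort, the second Cck probe) are limited by signal near background.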

Other observations

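Over the 12 arrays, the genes whose log2 levels correlated most closely with a member are given as a description of arrays that share 4 group levels. Sst was followed most closely by Sptb (r = 0.999), Pdyn by Tmed1 (r = 0.999), the brighter Cck probe by Eif3i (r = 0.997), the brighter Penk probe by Gabra5 (r = 0.997), Gal by Ccn5 (r = 0.996), Npy by Adgre5 (r = 0.989), Cort by Kat6a (r = 0.983) and Vip by Rnf2 (r = 0.938). Next came Ttc7b and Etnk1 for Sst (both r = 0.998), Plekhg3 and Actr5 for Pdyn (both r = 0.999), Pebp1 (r = 0.997) and Trp53rkb (r = 0.996) for Cck, Map2k1 (r = 0.997) and Nit1 (r = 0.996) for Penk, and Ly9 and Arhgap9 for Gal (both r = 0.996). For Npy they were Klhl31 (r = 0.981) and Pthlh (r = 0.980), for Cort Recql5 and Stam2 (both r = 0.982), and for Vip Sfmbt2 (r = 0.927) and Dnajb12 (r = 0.924). The gene at rank 100 still reached 0.991 for Sst and 0.995 for Pdyn, against 0.858 for Vip.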
